A study of Mus musculus with 14 samples.

Results

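Hippocampal transcriptomes of mice lacking GPR30 in astrocytes (AG-KO) were compared directly with those of mice lacking it in neurons (NG-KO), with no wild-type library in the test. The comparison took the 4 AG-KO and 4 NG-KO libraries, 8 of the 14 in the series, and the 16744 of 55450 annotated genes that reached 0.5 FPKM (fragment counts scaled by exon length and library depth) in at least 3 of the 8. AG-KO mice were GPR30 fl/fl;GFAP-Cre, with Cre driven by the mouse promoter of glial fibrillary acidic protein, an astrocyte marker. NG-KO mice were GPR30 fl/fl;NSE-Cre, with Cre driven by the promoter of neuron-specific enolase. Both lines therefore carried the floxed GPR30 allele and a Cre transgene and differed in the transgene. All mice were females of the C57BL/6J background at 10 weeks of age, and each library was polyadenylated RNA of the whole hippocampus. The other 6 libraries, 3 of global GPR30 knockouts (Δ3102) and 3 of wild-type (WT) mice, are given as levels only. Mice with a Cre transgene alone or with floxed alleles alone were not analysed here, so a difference that comes with a Cre line and a difference that comes with GPR30 loss in a cell type cannot be told apart.

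GPR30 is the product of Gper1 and responds to estrogen at cell membranes. It signals through G proteins to cyclic AMP and to kinases, and the transcription factor CREB is among the targets of those pathways. CREB binds the cyclic AMP response element in promoters and is known for its role in the gene programs that follow neuronal activity. Astrocytes take up glutamate and potassium, supply lipids to neurons and become reactive after injury, when genes such as Gfap and Serpina3n are induced.

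The 8 libraries held 44527024 to 56816498 counts, of which 99.56% to 99.63% fell in the tested genes. No pair of libraries held identical values (0 of 28 pairs). AG-KO libraries 3 and 4 stood apart from the other libraries: on the first principal component of the 8, which carried 27.8% of the variance, they lay at -69.6 and -66.2, against -6.0 to 41.5 for the other 6. They were both below all 12 other libraries of the series in 2148 genes, 20.5% of them pseudogenes against 9.21% of the tested genes, and both above them in 734 genes, among which were 10 of the 13 mitochondrially encoded mRNAs. Those 13 mRNAs took 6.23% and 6.69% of the counts in AG-KO libraries 3 and 4 and 3.17% and 4.53% in AG-KO libraries 1 and 2, against 3.85% to 5.20% in the NG-KO libraries. The labels give no reason for this, and counts of calls are therefore also given without those libraries, an alternative chosen after the data were seen. Markers of hippocampal neurons were present in every library: the 6 general neuronal markers summed to 766 to 853 FPKM in AG-KO and 824 to 884 FPKM in NG-KO libraries, and the 6 markers of dentate granule cells to 33.9 to 55.6 FPKM in AG-KO and 28.1 to 57.3 FPKM in NG-KO libraries. Transcripts of other tissues were also present at uneven levels. The 10 hepatocyte markers summed to 1.88 to 136 FPKM in AG-KO and 7.46 to 164 FPKM in NG-KO libraries, the 6 skeletal muscle markers to 4.48 to 206 FPKM in AG-KO and 8.12 to 177 FPKM in NG-KO libraries, and the 5 spermatid markers to 6.97 to 47.3 FPKM in AG-KO and 0.140 to 102 FPKM in NG-KO libraries. None of the 20 that were tested passed. A fit with Alb, a hepatocyte marker, as covariate is given among the alternatives at the end. The part of these transcripts in the results below was not tested otherwise.

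The targeted gene did not separate the lines. In AG-KO libraries 1 to 4, Gper1 stood at 0.540, 1.38, 0.891 and 1.22 FPKM, against 1.10, 1.41, 0.975 and 1.12 FPKM in NG-KO libraries 1 to 4 (values are given in library order throughout). The groups overlapped, and the log2 fold change of AG-KO over NG-KO was -0.16 ± 0.32 (SE, n = 4 each), with an adjusted p of 0.860 in edgeR's quasi-likelihood test with Benjamini-Hochberg adjustment. In the Δ3102 libraries Gper1 was at 0.0124 to 0.145 FPKM, and in the WT libraries at 0.797 to 3.05 FPKM. In whole tissue, fewer cells expressing a gene and less of its RNA per cell cannot be told apart, and each conditional line keeps Gper1 in the cells that do not express its Cre. The genes named after the Cre promoters differed a little in opposite directions without passing the test. Gfap was at 119, 97.8, 120 and 101 FPKM in AG-KO and 94.6, 78.7, 89.7 and 61.1 FPKM in NG-KO libraries, with a log2 fold change of 0.46 ± 0.15 and an edgeR adjusted p of 0.304. Eno2, which encodes neuron-specific enolase, was at 159, 170, 141 and 144 FPKM in AG-KO and 177, 181, 173 and 184 FPKM in NG-KO libraries, with a log2 fold change of -0.20 ± 0.07 and an edgeR adjusted p of 0.325.

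Few genes separated the lines beyond the spread among libraries. In the edgeR test 13 of 16744 genes passed an adjusted p of 0.05 (0.0776%), 7 of them higher in AG-KO (0.0418%) and 6 lower (0.0358%). An unadjusted p under 0.05 was reached by 1147 genes that were higher (6.85%) and 867 that were lower in AG-KO (5.18%). DESeq2 called 351 genes (2.10%), among them all 13. The levels of the lines did not overlap in 1178 genes (7.04%), 596 higher (3.56%) and 582 lower (3.48%) in AG-KO, again with all 13 among them. With the thresholds of the study's methods, a ratio of mean FPKM above 2 or below 0.5 and an unadjusted p under 0.05, 313 genes passed (1.87%), 163 higher (0.973%) and 150 lower (0.896%) in AG-KO. Over all tested genes the median log2 fold change was 0.00, and 50.1% were higher in AG-KO. Without AG-KO libraries 3 and 4 the edgeR test called 18 genes, 8 higher and 10 lower. Leaving out any single library left between 10 and 30 calls, the 30 being without AG-KO library 2. Of the 13 genes, 9 are protein-coding, 3 are processed pseudogenes and 1 is a long noncoding RNA. The labels number the libraries of a line as replicates and do not say that each came from its own mouse, so the p-values measure the spread between these libraries, which may in part be technical.

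**Figure D1:**
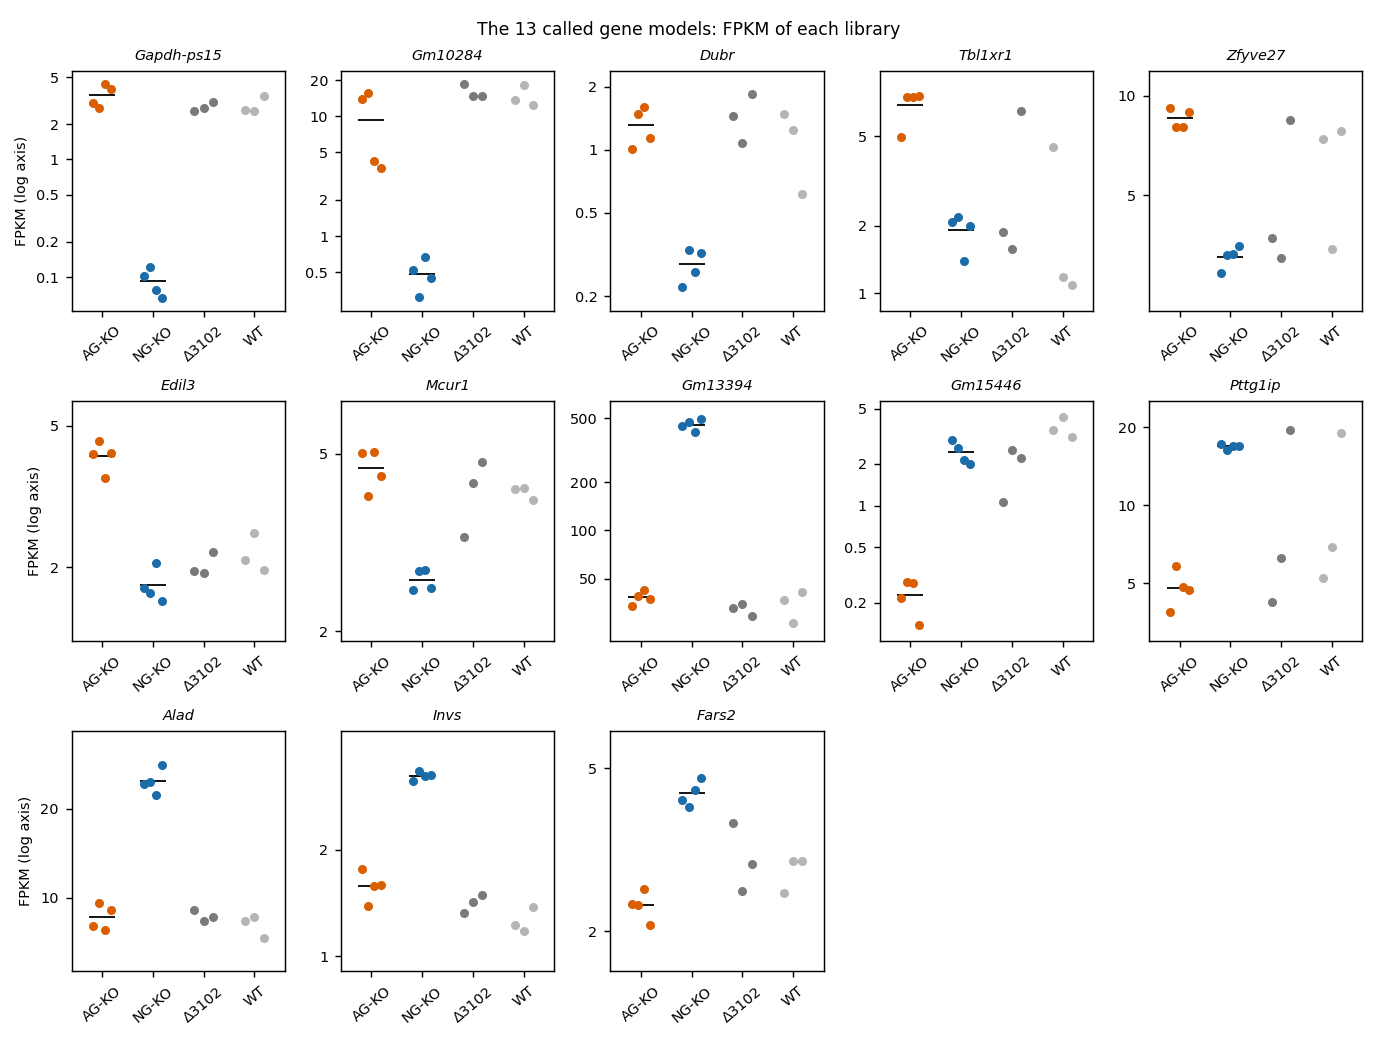
FPKM on a log axis of the 13 gene models with an edgeR adjusted p under 0.05, for the 4 AG-KO and 4 NG-KO libraries and, as levels only, the 3 Δ3102 and 3 WT libraries; each point is 1 library, each panel a gene and each bar the mean of a line. The AG-KO and NG-KO points do not overlap in any panel, while the Δ3102 and WT points of Tbl1xr1, Zfyve27 and Pttg1ip are spread over the range of both lines.

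Among the protein-coding genes that were higher in AG-KO, Zfyve27 was the most regular. It encodes protrudin, a protein of the endoplasmic reticulum that takes part in the outgrowth of neurites. Zfyve27 (GRCm38 chr19:42163951-42194590) stood at 9.16, 8.05, 8.04 and 8.94 FPKM in AG-KO libraries and at 2.89, 3.29, 3.32 and 3.49 FPKM in NG-KO libraries. The lowest AG-KO library was above the highest NG-KO library by more than the range of either group. The log2 fold change was 1.42 ± 0.09 (edgeR adjusted p = 0.000493), or 2.68-fold. The same levels were seen within other genotypes: the 3 Δ3102 libraries were at 3.70, 3.23 and 8.42 FPKM and the 3 WT libraries at 7.37, 3.42 and 7.81 FPKM. With all 14 libraries in the fit, in which the spread within WT and Δ3102 is included, its adjusted p was 0.0844.

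Tbl1xr1 (GRCm38 chr3:22076652-22216594) encodes a subunit of the nuclear receptor corepressor complexes. It stood at 4.98, 7.49, 7.47 and 7.53 FPKM in AG-KO libraries, against 2.09, 2.19, 1.39 and 2.00 FPKM in NG-KO libraries. AG-KO library 1 was the lowest of its line and still above every NG-KO library. Tbl1xr1 had a log2 fold change of 1.87 ± 0.19 (edgeR adjusted p = 0.00874). It, too, was uneven within the other genotypes, with 1.87, 1.58 and 6.46 FPKM in Δ3102 and 4.48, 1.19 and 1.08 FPKM in WT libraries. Its adjusted p was 0.141 in the fit of all 14 libraries and 0.105 without AG-KO libraries 3 and 4.

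Edil3 (GRCm38 chr13:88821472-89323223) encodes a secreted matrix protein that binds integrins. Its levels were 4.17, 4.52, 3.56 and 4.18 FPKM in AG-KO and 1.74, 1.70, 2.06 and 1.61 FPKM in NG-KO libraries. No AG-KO library came near the NG-KO range, and here the Δ3102 libraries (1.93 to 2.21 FPKM) and WT libraries (1.96 to 2.49 FPKM) lay close to NG-KO. The log2 fold change was 1.23 ± 0.11 (edgeR adjusted p = 0.00290). Mcur1 (GRCm38 chr13:43538393-43560161), which encodes a regulator of the mitochondrial calcium uniporter, was at 5.01, 4.01, 5.05 and 4.45 FPKM in AG-KO and 2.47, 2.73, 2.74 and 2.50 FPKM in NG-KO libraries. In this gene the Δ3102 libraries (3.25 to 4.78 FPKM) and WT libraries (3.94 to 4.19 FPKM) lay above the NG-KO range. Its log2 fold change was 0.85 ± 0.11 (edgeR adjusted p = 0.0357), and the call did not hold when any library but AG-KO 2 was left out (adjusted p of 0.0893 to 0.132) or without AG-KO libraries 3 and 4 (0.221). Dubr (GRCm38 chr16:50719294-50732773) is a long noncoding RNA. It was at 1.01, 1.48, 1.61 and 1.14 FPKM in AG-KO and 0.221, 0.333, 0.262 and 0.323 FPKM in NG-KO libraries, with Δ3102 (1.08 to 1.84 FPKM) and WT (0.613 to 1.48 FPKM) above the NG-KO range. Its log2 fold change was 2.23 ± 0.25 (edgeR adjusted p = 0.0137). The adjusted p was 0.0506 without NG-KO library 2, 0.0783 without NG-KO library 3 and 0.138 without AG-KO libraries 3 and 4.

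Among the genes lower in AG-KO, Alad was called under every alternative tried. Alad (GRCm38 chr4:62509169-62519894) encodes delta-aminolevulinate dehydratase, an enzyme of heme synthesis. It stood at 8.04, 9.62, 7.80 and 9.07 FPKM in AG-KO libraries, against 24.3, 24.8, 22.3 and 28.3 FPKM in NG-KO libraries. The highest AG-KO library lay well under the lowest NG-KO library. Alad had a log2 fold change of -1.50 ± 0.11 (edgeR adjusted p = 0.000766), or 2.83-fold higher in NG-KO. The Δ3102 libraries (8.31 to 9.10 FPKM) and the WT libraries (7.32 to 8.63 FPKM) stood near the AG-KO level.

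In Invs and Fars2, too, the NG-KO libraries lay above those of the other genotypes. Invs (GRCm38 chr4:48279760-48396314) encodes inversin, a protein of the primary cilium. It was at 1.76, 1.38, 1.58 and 1.59 FPKM in AG-KO and 3.12, 3.33, 3.22 and 3.25 FPKM in NG-KO libraries, with 1.32 to 1.49 FPKM in Δ3102 and 1.18 to 1.37 FPKM in WT libraries. The 4 NG-KO libraries lay within a narrow range, and the log2 fold change was -1.01 ± 0.10 (edgeR adjusted p = 0.00539), with an adjusted p of 0.0632 without AG-KO libraries 3 and 4. Fars2 (GRCm38 chr13:36117412-36724295) encodes the mitochondrial phenylalanyl-tRNA synthetase. It was at 2.33, 2.32, 2.53 and 2.07 FPKM in AG-KO and 4.19, 4.02, 4.42 and 4.75 FPKM in NG-KO libraries, with 2.51 to 3.67 FPKM in Δ3102 and 2.48 to 2.97 FPKM in WT libraries. Its log2 fold change was -0.88 ± 0.11 (edgeR adjusted p = 0.0298), and the call did not hold when any library but AG-KO 3 was left out (adjusted p of 0.0502 to 0.119) or without AG-KO libraries 3 and 4 (0.105).

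Pttg1ip (GRCm38 chr10:77581720-77598732) encodes a protein that binds securin, a regulator of chromosome separation. It was at 3.88, 5.85, 4.82 and 4.69 FPKM in AG-KO and 17.3, 16.4, 16.9 and 16.9 FPKM in NG-KO libraries. Every NG-KO library was above every AG-KO library, with a log2 fold change of -1.78 ± 0.13 (edgeR adjusted p = 0.000766). In Δ3102 libraries it was at 4.24, 6.25 and 19.5 FPKM and in WT libraries at 5.24, 6.87 and 18.9 FPKM, so that 1 library of each had the NG-KO level, and its adjusted p was 0.119 in the fit of all 14 libraries. Gm15446 (GRCm38 chr5:109923400-109943936), a protein-coding model outside the rule for named genes and described because so few genes were called, was at 0.217, 0.280, 0.279 and 0.137 FPKM in AG-KO and 2.99, 2.61, 2.13 and 2.00 FPKM in NG-KO libraries. Here the AG-KO line was the low one of the 4 genotypes, with 1.07 to 2.50 FPKM in Δ3102 and 3.11 to 4.38 FPKM in WT libraries. Its log2 fold change was -3.36 ± 0.28 (edgeR adjusted p = 0.00172). The longest transcript of Gm15446 shares 1765 bases at 97.4% identity with Zfp932, so reads may have been divided between these genes; Zfp932 itself had a log2 fold change of 0.35 ± 0.28 and an unadjusted p of 0.251 in the edgeR fit. The other called protein-coding genes had no other gene at 95% identity over 200 bases.

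The remaining 3 called models were pseudogenes of Gapdh, the glycolytic enzyme glyceraldehyde-3-phosphate dehydrogenase, and had the largest differences of the 13. They fall outside the rule for named genes and were chosen after their values were seen. Their sequences are shown because the copies differ from Gapdh at so few bases. Positions are counted from 1 at the A of the Gapdh start codon, in GENCODE transcripts of GRCm38. Gm13394 (chr2:28933610-28934609, minus strand) carries the single substitution A346C over 1000 aligned bases. Gapdh-ps15 (chrY:38619783-38620784, plus strand) carries 5 substitutions (T63C, T150C, C219G, C222T and C591T). Gm10284 (chr8:57550299-57551303, plus strand) carries 7 (C40T, T63C, T150C, C219G, C446T, C591T and C903T), of which 4 are shared with Gapdh-ps15. In the stretch of coding bases 316 to 376, the capital letter marks the base at which Gm13394 differs from Gapdh:
Gapdh, bases 316 to 376: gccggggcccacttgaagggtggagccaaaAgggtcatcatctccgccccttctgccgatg
Gm13394, same stretch: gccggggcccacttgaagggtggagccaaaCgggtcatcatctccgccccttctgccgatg
In coding bases 189 to 249, capitals mark the bases at which Gapdh-ps15 or Gm10284 differs from Gapdh:
Gapdh, bases 189 to 249: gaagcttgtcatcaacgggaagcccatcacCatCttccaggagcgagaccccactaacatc
Gapdh-ps15, same stretch: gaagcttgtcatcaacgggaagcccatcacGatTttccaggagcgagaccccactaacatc
Gm10284, same stretch: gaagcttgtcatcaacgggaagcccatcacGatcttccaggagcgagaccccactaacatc

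Gm13394 held 1885, 2153, 2142 and 2357 counts in AG-KO libraries, against 28351, 29387, 23254 and 26746 counts in NG-KO libraries. Every NG-KO library was far above every AG-KO library, and the Δ3102 and WT libraries, at 29.2 to 35.0 FPKM and 26.5 to 41.4 FPKM, lay near the AG-KO level of 33.8 to 42.6 FPKM. Gm13394 had a log2 fold change of -3.54 ± 0.11 (edgeR adjusted p = 1.996e-06), or 11.7-fold higher in NG-KO. The other pair went the opposite way. Gapdh-ps15 held 170, 151, 221 and 253 counts in AG-KO and 7, 8, 5 and 4 counts in NG-KO libraries, with a log2 fold change of 5.14 ± 0.36 (edgeR adjusted p = 0.000766). This model lies on the Y chromosome while the mice were female, and it was at 2.61 to 3.06 FPKM in Δ3102 and 2.56 to 3.47 FPKM in WT libraries, near the AG-KO level. Gm10284 held 784, 860, 214 and 233 counts in AG-KO and 34, 20, 39 and 25 counts in NG-KO libraries, with a log2 fold change of 4.23 ± 0.55 (edgeR adjusted p = 0.0357). AG-KO libraries 3 and 4 were the low ones of their line, and the call did not hold when AG-KO library 1 or any NG-KO library was left out (adjusted p of 0.0736 to 0.147).

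In near-identical copies the share of reads given to each model depends on how reads that match several places were counted, so these values are uncertain as levels of a single locus. The annotated genes of the series include 66 gene models, Gapdh included, at 95% identity or more over at least 900 bases of the Gapdh transcript. Of the 37 that were tested, 2 were called higher and 1 lower in AG-KO, and 7 higher and 2 lower reached an unadjusted p under 0.05, with a median log2 fold change of 0.18. Over all tested genes these shares were 0.0418% called higher and 0.0358% called lower, and 6.85% higher and 5.18% lower at an unadjusted p under 0.05. Gapdh itself held 7087, 5986, 5571 and 7668 counts in AG-KO and 6584, 8294, 7425 and 8314 counts in NG-KO libraries. These ranges overlapped, and the log2 fold change of Gapdh was -0.13 ± 0.11 with an unadjusted p of 0.292 in the edgeR fit. Summed over the 66 models, the CPM (counts scaled to library size) came to 1407, 1521, 1677 and 1730 in AG-KO and 1896, 2039, 1899 and 2164 in NG-KO libraries, or 1584 ± 148 and 1999 ± 128 (SD, n = 4 each). The log2 difference of these sums was -0.34. Gm13394, itself part of the sums, took 2.45% to 2.89% of the summed counts in AG-KO and 24.1% to 26.3% in NG-KO libraries. Without it the other 65 models summed to 1370, 1477, 1629 and 1688 CPM in AG-KO and 1397, 1504, 1440 and 1609 CPM in NG-KO libraries. These sums overlapped, with a log2 difference of 0.05. Both sums were added after the data were seen and are given without a test.

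**Figure D2:**
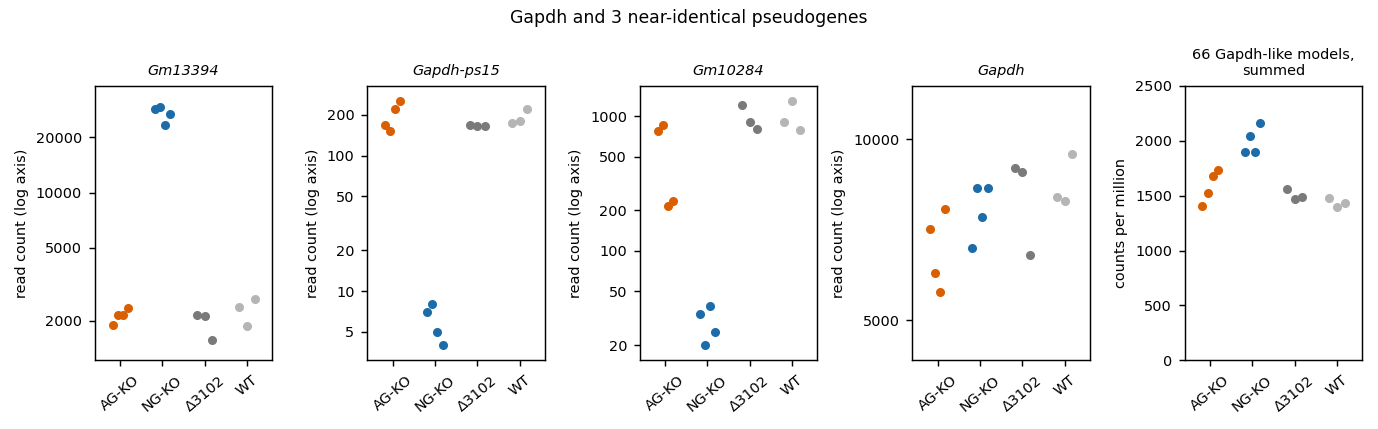
Read counts on log axes of Gapdh and the 3 called pseudogenes, and the summed CPM of the 66 Gapdh-like models on an axis from 0, for each library by genotype. Gapdh overlaps between AG-KO and NG-KO, Gm13394 is lower and Gapdh-ps15 and Gm10284 are higher in every AG-KO library, and the sums are 1407 to 1730 CPM in AG-KO and 1896 to 2164 CPM in NG-KO.

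Some of the genes around Alad were also lower in AG-KO. Of the 14 other tested genes within 500 kb of Alad, 4 were lower and 1 was higher in AG-KO at an unadjusted p under 0.05, against 5.18% and 6.85% of all tested genes, and their median log2 fold change was -0.41. None of the 14 was called. They include Mup20 (-1.88) and Mup3 (-1.70), which like Alb were at 0.0001 FPKM in AG-KO libraries 3 and 4. Like Alb, both were highest in library 1 within AG-KO and lowest in library 1 within NG-KO. Their part in the median was not tested. Hdhd3, the adjacent gene, which encodes a haloacid dehalogenase-like protein, was at 1.38, 3.43, 2.85 and 1.70 FPKM in AG-KO and 7.63, 9.78, 6.97 and 11.3 FPKM in NG-KO libraries. The groups did not overlap, with a log2 fold change of -1.90 ± 0.31 (edgeR adjusted p = 0.102). The Δ3102 libraries (2.30 to 3.37 FPKM) and WT libraries (2.58 to 3.72 FPKM) of Hdhd3 lay under the NG-KO range. Bspry, the next gene on that side, was at 0.217, 0.892, 0.175 and 0.215 FPKM in AG-KO and 2.21, 1.15, 1.83 and 1.60 FPKM in NG-KO libraries. Its lowest NG-KO library was above its highest AG-KO library, and the log2 fold change was -2.15 ± 0.54 (edgeR adjusted p = 0.226). Bspry was uneven within the other genotypes, with 0.400, 0.454 and 1.53 FPKM in Δ3102 and 0.0311, 0.728 and 1.38 FPKM in WT libraries. The highest library of each lay within the NG-KO range. Cdc26, a subunit of the anaphase-promoting complex, was at 3.17, 2.89, 2.47 and 2.42 FPKM in AG-KO and 3.75, 4.24, 3.42 and 5.01 FPKM in NG-KO libraries, again without overlap (log2 fold change -0.56 ± 0.13, edgeR adjusted p = 0.213). The Δ3102 libraries (2.72 to 3.87 FPKM) and WT libraries (2.75 to 3.43 FPKM) of Cdc26 reached into the NG-KO range. Wdr31 had a log2 fold change of -0.61 ± 0.24 with overlap (edgeR adjusted p = 0.368), while Rgs3, an inhibitor of G protein signaling on the other side of Alad, had one of 0.44 ± 0.15 (edgeR adjusted p = 0.333). Between the lower genes, Prpf4 (-0.17) did not reach an unadjusted p of 0.05, and neither did Pole3 (-0.55), which lies next to Alad. Bspry, Cdc26 and Wdr31 were chosen after their values were seen. Around the other 12 called models, no more than 2 tested neighbours within 500 kb reached an unadjusted p under 0.05, and Gapdh-ps15 had no tested neighbour.

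**Figure D3:**
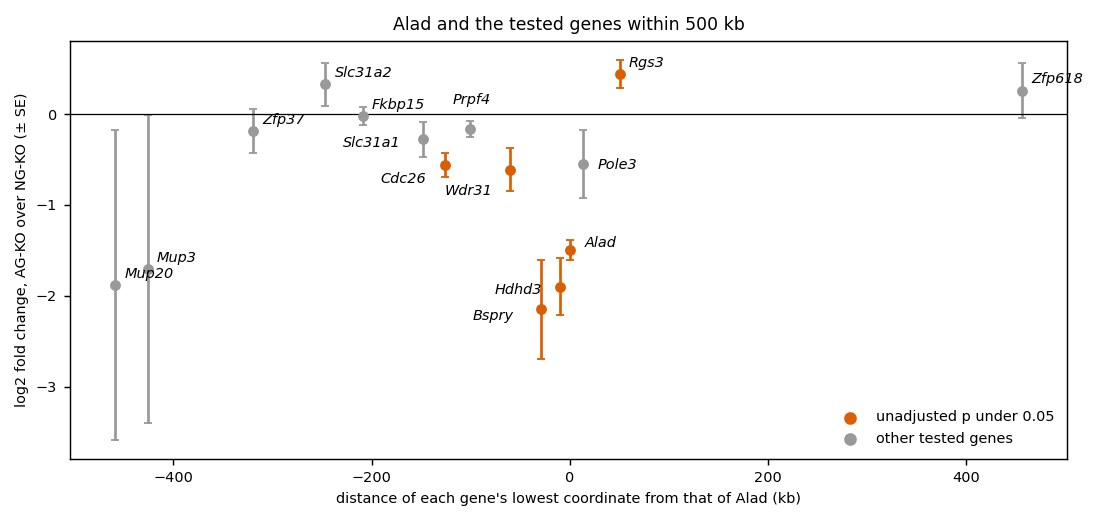
Log2 fold change of AG-KO over NG-KO, with its standard error, for Alad and the 14 tested genes within 500 kb, against distance in kb from Alad; colored points have an unadjusted p under 0.05. Hdhd3 (-1.90) and Bspry (-2.15) stand beside Alad (-1.50), and the other genes have smaller changes or, for Mup20 and Mup3, wide errors.

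The genes around the targeted locus and the driver genes were less one-sided. Within 5 Mb of Gper1, 13 of 175 tested genes were higher and 11 lower at an unadjusted p under 0.05 (13.7%), with a median log2 fold change of 0.04. For the 197 genes around Gfap these counts were 17 and 13 (15.2%), with a median of 0.06, and for the 123 around Eno2 they were 13 and 11 (19.5%), with a median of 0.08. Over all tested genes 6.85% were higher and 5.18% lower at that level, and no gene in the 3 windows was called. The places at which the Cre transgenes are inserted are not given in the sources used here.

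The cyclic AMP response element was looked for in the promoters, since CREB is the factor that the study follows downstream of GPR30. RefSeq promoters of GRCm38.p6, from 250 bases before to 50 bases after the start of a gene, were found for 11078 of the tested genes. The palindrome TGACGTCA was in 375 of them (3.39%), and its shorter form TGACG, read on either strand and contained in the palindrome, in 34.3%. Of the 13 called genes 9 had a promoter in the table. The palindrome was in 1 of these 9 and the shorter form in 3 (33.3%). Among the genes called without 1 library the shorter form was in 31.6% to 57.1%, the highest without NG-KO library 2 (4 of 7), and among those called without AG-KO libraries 3 and 4 in 83.3% (5 of 6). The promoter with the palindrome was that of Zfyve27. For comparison, 2 of the 18 promoters of the activity-induced CREB target genes described below, those of Dusp1 and Btg2, held the palindrome, and 16 (88.9%) the shorter form. The stretches around the palindrome, in capitals, are shown for these 3 genes:
Zfyve27, chr19:42170535-42170594, plus strand: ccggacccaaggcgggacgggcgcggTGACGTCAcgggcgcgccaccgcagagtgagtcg
Dusp1, chr17:26508582-26508641, minus strand: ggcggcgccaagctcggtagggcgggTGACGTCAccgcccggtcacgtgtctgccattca
Btg2, chr1:134079288-134079347, minus strand: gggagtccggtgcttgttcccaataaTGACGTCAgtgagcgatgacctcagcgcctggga
The palindrome begins at -6 from the RefSeq start in Zfyve27, at -143 in Dusp1 and at -166 in Btg2. The Zfyve27 stretch lies inside the tested gene model, which begins at chr19:42163951 on the plus strand. This RefSeq start is therefore not the first base of that model. Dusp1, a phosphatase of MAP kinases, was at 5.48, 5.96, 3.65 and 4.35 FPKM in AG-KO and 2.66, 4.40, 3.11 and 3.87 FPKM in NG-KO libraries, which overlapped. A match is a description of these bases and not of binding.

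Beyond the called genes, the rule filled each direction to 12 with genes of small unadjusted p whose groups did not overlap; none of these passed the edgeR test at an adjusted p of 0.05 (0.0711 to 0.197). In AG-KO libraries the higher ones were Otud7b, a deubiquitinase, with a log2 fold change of 0.99, Itgb4, integrin beta 4 (1.41), Epb41l4b (0.53), the tetraspanin Cd82 (1.09), Dock5, an activator of Rac (1.48), the vitamin B12 carrier Tcn2 (0.52) and the postsynaptic protein gene Frmpd4 (1.58). Otud7b was at 6.19, 5.78, 6.52 and 5.45 FPKM in AG-KO and 2.64, 2.69, 2.88 and 4.04 FPKM in NG-KO libraries, the last of them being nearest to AG-KO. Frmpd4 was at 6.52, 3.53, 5.30 and 3.26 FPKM in AG-KO and 1.91, 1.31, 1.19 and 1.91 FPKM in NG-KO libraries. The genes lower in AG-KO, with their log2 fold changes, were, besides Hdhd3, the ATP synthase subunit gene Atp5mpl (-0.64), the RNA-binding protein gene Chtop (-0.50), Nit2 (-0.67), the glutathione reductase Gsr (-0.47), the aspartate aminotransferase Got1 (-0.45) and Hist1h2bk (-2.97), a histone gene whose close copies make its value uncertain. Got1 was at 114, 122, 102 and 108 FPKM in AG-KO and 150, 166, 131 and 172 FPKM in NG-KO libraries.

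Gene groups were then described by 41 lists, 19 of pathways and 22 of cell type markers, with 407 different tested members. None of the 407 passed the edgeR test, while DESeq2 called 24, against 2.10% of all tested genes. Counts of members at an unadjusted p under 0.05 are to be read against 6.85% of all genes for higher and 5.18% for lower in AG-KO, and medians against 0.00. These references belong to the fit of all 8 libraries. For the fit without AG-KO libraries 3 and 4 the values over all genes are not given here. Counts and medians from that fit therefore stand without a reference. Astrocytes are the cells in which the AG-KO line is meant to lack GPR30. Of the 6 general astrocyte markers all were higher in AG-KO, with a median log2 fold change of 0.36, and 4 reached an unadjusted p under 0.05 (Aqp4, Gfap, Aldh1l1 and Sox9). Without AG-KO libraries 3 and 4 that median was 0.20, with 1 gene at that level. Slc1a3 and Gja1, which encode a glutamate transporter and connexin 43, were at 30.8 to 38.7 and 16.4 to 17.1 FPKM in AG-KO and at 30.6 to 35.2 and 15.7 to 16.8 FPKM in NG-KO libraries, and overlapped. Among 23 genes of homeostatic astrocyte function 19 were higher, 6 of them at an unadjusted p under 0.05 and none lower at that level, with a median of 0.11. Kcnj10, the astrocyte potassium channel Kir4.1, was at 53.7, 39.5, 52.4 and 53.2 FPKM in AG-KO and 33.6, 29.9, 31.6 and 27.0 FPKM in NG-KO libraries. AG-KO library 2 was the nearest to NG-KO and did not overlap it, and the log2 fold change was 0.73 ± 0.13 (edgeR adjusted p = 0.121). Aqp4, the water channel of astrocyte endfeet, was at 15.7, 15.2, 16.4 and 16.6 FPKM in AG-KO and 12.6, 11.3, 11.5 and 10.8 FPKM in NG-KO libraries, again without overlap (log2 fold change 0.50 ± 0.09, edgeR adjusted p = 0.134).

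Genes of reactive astrocytes had a larger median. Of 13 pan-reactive genes 8 were tested, 7 were higher in AG-KO and 5 reached an unadjusted p under 0.05, with a median log2 fold change of 0.45. Serpina3n, which encodes a secreted serine protease inhibitor, was at 43.1, 40.5, 44.7 and 32.9 FPKM in AG-KO and 29.6, 25.4, 32.9 and 23.9 FPKM in NG-KO libraries. The lines touched at their edges without overlapping, and the log2 fold change was 0.55 ± 0.13 (edgeR adjusted p = 0.213). Vim, vimentin, was at 12.2, 9.08, 8.65 and 9.68 FPKM in AG-KO and 6.41, 8.13, 7.82 and 7.13 FPKM in NG-KO libraries (log2 fold change 0.45 ± 0.12, edgeR adjusted p = 0.245). The WT libraries, at 7.48 to 11.8 FPKM for Vim and 22.3 to 37.3 FPKM for Serpina3n, covered much of both lines. For Gfap, also a pan-reactive gene, the WT libraries (97.9 to 119.7 FPKM) lay within the AG-KO range. The Δ3102 libraries (84.95 to 93.75 FPKM) lay within the NG-KO range of Gfap. The lists named A1 and A2, for the neurotoxic and the repair-linked reactive states, had 1 member each at an unadjusted p under 0.05. These were the class I histocompatibility gene H2-D1 (log2 fold change 0.48 ± 0.16, edgeR adjusted p = 0.324) of 10 A1 genes with a median of 0.23, and Tm4sf1 (log2 fold change 0.57 ± 0.22, edgeR adjusted p = 0.361) of 6 A2 genes with a median of 0.01. The 3 proinflammatory cytokine genes listed did not reach the level needed for a test.

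**Figure D4:**
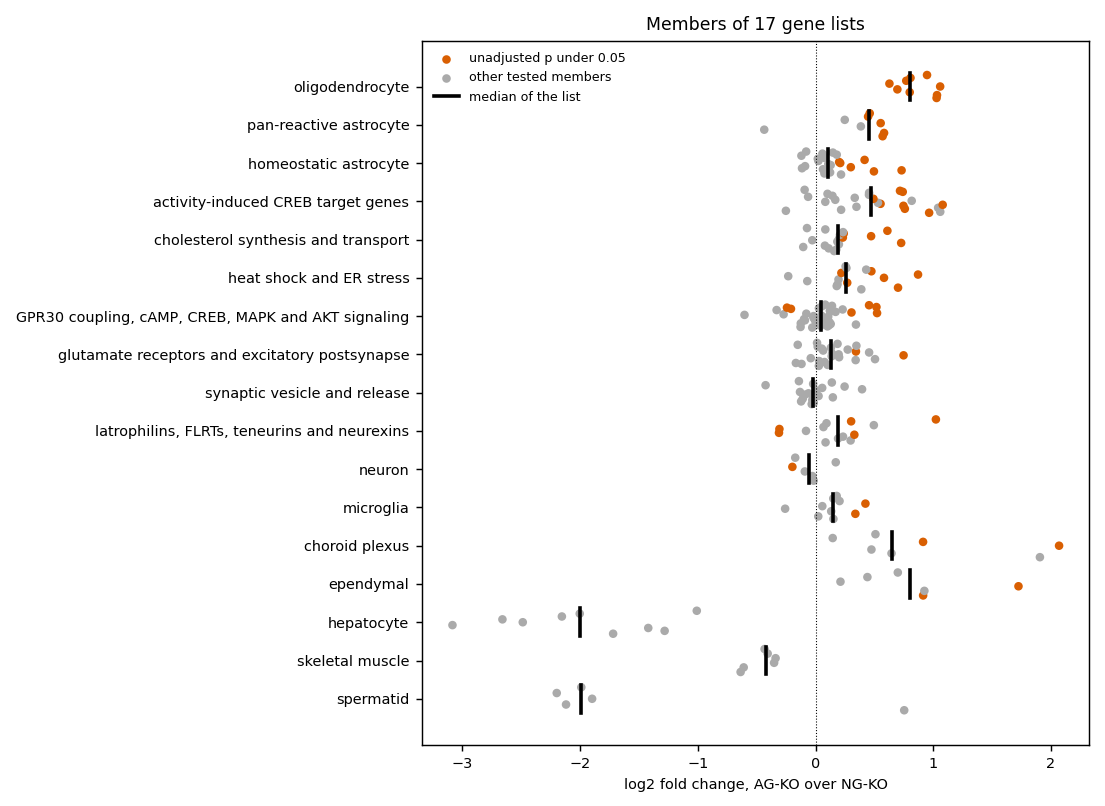
Log2 fold change of AG-KO over NG-KO for the tested members of 17 lists; each point is a gene, colored where its unadjusted p was under 0.05, and each bar is the median of the list. The oligodendrocyte (0.81) and pan-reactive astrocyte (0.45) medians lie right of 0, synaptic vesicle genes (-0.02) lie at 0, and the hepatocyte (-2.00) and spermatid (-1.99) medians lie far left.

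Myelin genes were placed on 1 side. All 9 oligodendrocyte markers were higher in AG-KO and reached an unadjusted p under 0.05, with a median log2 fold change of 0.81, and 5 of them did not overlap between the lines (3.56% of all tested genes were higher without overlap). Their summed FPKM was 413 to 761 in AG-KO and 259 to 382 in NG-KO libraries. Mbp, myelin basic protein, was at 65.3, 40.4, 77.8 and 67.9 FPKM in AG-KO and 34.5, 29.5, 34.4 and 27.6 FPKM in NG-KO libraries. AG-KO library 2 was the lowest of its line, and the log2 fold change was 1.03 ± 0.20 (edgeR adjusted p = 0.179). DESeq2 called 7 of the 9 higher, against 1.49% of all tested genes. Without AG-KO libraries 3 and 4 the median was 0.85 and 8 of 9 reached an unadjusted p under 0.05, with no share of all genes from that fit beside it. Markers of cells that line the ventricles lay on the same side: 7 of 7 choroid plexus genes were higher, 2 at an unadjusted p under 0.05, with a median of 0.65, and 6 of 6 ependymal genes were higher, 2 at that level, with a median of 0.81. The summed FPKM was uneven, 36.9 to 278 in AG-KO and 19.7 to 59.4 in NG-KO libraries for all 10 choroid plexus genes listed, and 18.1 to 54.7 in AG-KO and 12.5 to 26.6 in NG-KO libraries for ependymal genes. The sums of both lists overlapped between the lines, and the part of these cells in the myelin and astrocyte results was not tested. Oligodendrocyte precursor genes had a median of 0.15 with 5 of 5 higher, and microglial genes one of 0.15 with 9 of 10 higher. Of the 6 neuronal markers 5 were lower, with a median of -0.06, and only Eno2 reached an unadjusted p under 0.05.

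Activity-induced CREB target genes, which follow neuronal firing, were split within the AG-KO line. Of 24 tested, 21 were higher in AG-KO, 8 of them at an unadjusted p under 0.05, with a median log2 fold change of 0.47, but the lines overlapped in every one of them. Nptx2, a neuronal pentraxin secreted at excitatory synapses, was at 21.4, 19.2, 13.2 and 10.4 FPKM in AG-KO and 11.2, 8.24, 11.6 and 7.68 FPKM in NG-KO libraries (log2 fold change 0.74 ± 0.23, edgeR adjusted p = 0.293). Egr1, an immediate early transcription factor, was at 46.4, 44.1, 26.1 and 18.3 FPKM in AG-KO and 22.6, 16.7, 21.6 and 19.5 FPKM in NG-KO libraries (log2 fold change 0.76 ± 0.26, edgeR adjusted p = 0.329). In both genes AG-KO libraries 1 and 2 were the high ones, and libraries 3 and 4, which stood apart from the rest, were nearer to or within the NG-KO range. Arc, a regulator of synaptic strength, was at 71.6, 74.8, 53.3 and 17.3 FPKM in AG-KO and 34.5, 16.3, 27.1 and 25.2 FPKM in NG-KO libraries. Fos was at 11.0, 12.4, 4.70 and 3.34 FPKM in AG-KO and 3.94, 3.16, 3.78 and 5.29 FPKM in NG-KO libraries. Arc and Fos were chosen after their values were seen. Without AG-KO libraries 3 and 4 the median of the list was 0.75 and 17 of 24 reached an unadjusted p under 0.05. The share of all genes at that level in that fit is not given here, so this count has no reference.

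**Figure D5:**
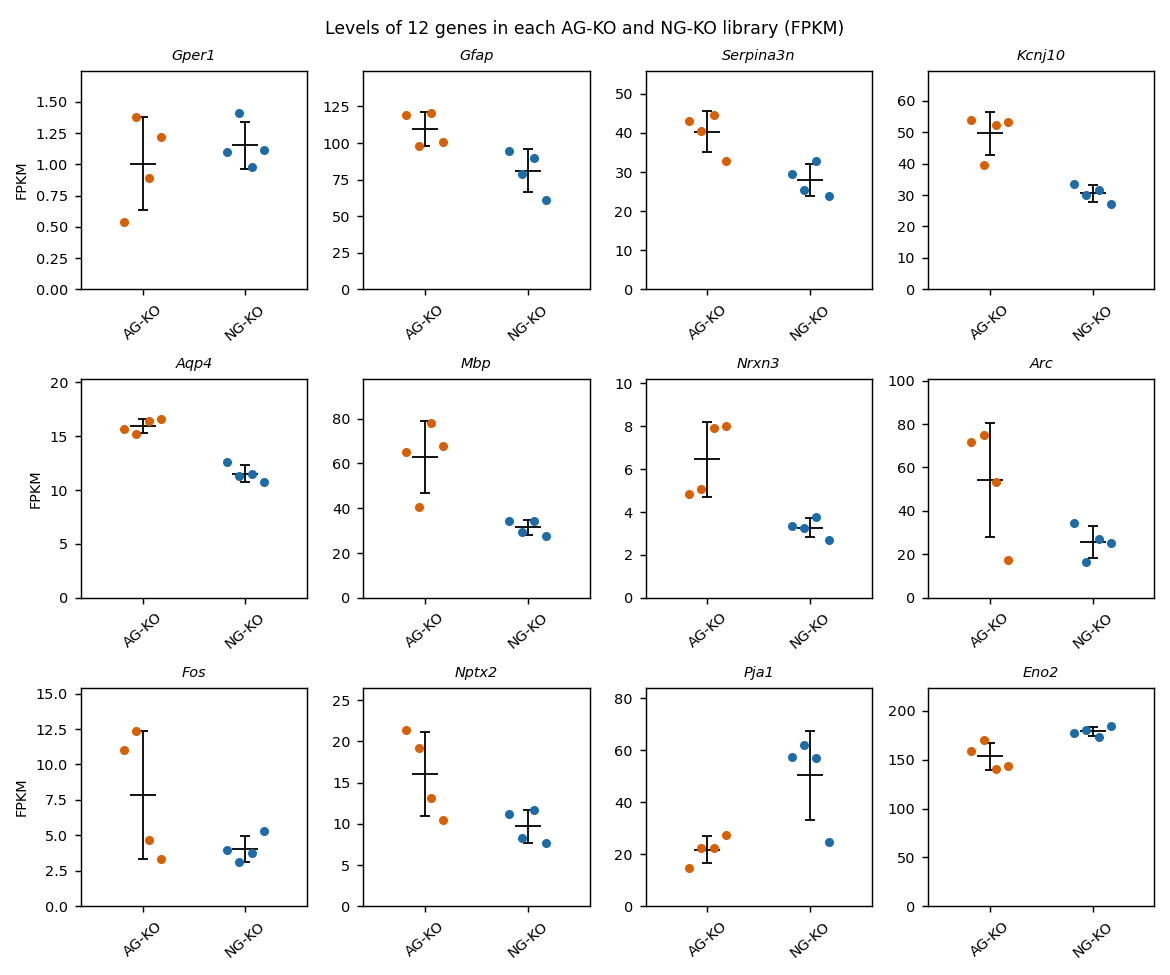
FPKM of each AG-KO and NG-KO library for 12 genes, with the mean and SD of each line; every axis starts at 0. Gper1 overlaps, Kcnj10, Aqp4, Gfap, Serpina3n, Mbp and Nrxn3 are higher in every AG-KO library, Arc, Fos and Nptx2 are high in some AG-KO libraries only, and 1 NG-KO library of Pja1 lies within the AG-KO range.

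The components of GPR30 signaling themselves differed little. Of 39 genes for G protein coupling, cyclic AMP, CREB, MAP kinase and AKT signaling, 24 were higher in AG-KO, 4 higher and 2 lower at an unadjusted p under 0.05, with a median log2 fold change of 0.04. Akt2, a kinase of the insulin pathway, was at 13.2, 13.0, 14.5 and 14.4 FPKM in AG-KO and 11.1, 9.82, 11.3 and 8.67 FPKM in NG-KO libraries, without overlap (log2 fold change 0.45 ± 0.11, edgeR adjusted p = 0.216). Pik3ca, the catalytic subunit of a phosphoinositide kinase, was at 3.81, 3.50, 3.58 and 3.62 FPKM in AG-KO and 3.50, 2.66, 2.21 and 1.91 FPKM in NG-KO libraries, with NG-KO library 1 inside the AG-KO range (log2 fold change 0.52 ± 0.18, edgeR adjusted p = 0.332). Pja1, a ubiquitin ligase and a gene that the study follows, was at 14.7, 22.6, 22.4 and 27.4 FPKM in AG-KO and 57.4, 62.0, 57.2 and 25.0 FPKM in NG-KO libraries. The fourth NG-KO library lay within the AG-KO range, and the log2 fold change was -1.18 ± 0.30 (edgeR adjusted p = 0.226). The Δ3102 libraries (14.8 to 19.9 FPKM) were near the AG-KO level and the WT libraries (45.9 to 61.4 FPKM) near the 3 high NG-KO libraries. The adjusted p of Pja1 ranged from 0.00432 to 0.633 over the alternatives, the lowest in DESeq2.

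Lipid, stress and synaptic groups completed the lists. Astrocytes make much of the cholesterol that neurons use. Of 18 genes of cholesterol synthesis and transport 15 were higher in AG-KO, 5 at an unadjusted p under 0.05, with a median log2 fold change of 0.19 (0.29 and 10 genes without AG-KO libraries 3 and 4). Lss, lanosterol synthase, was at 2.66, 2.25, 3.50 and 3.13 FPKM in AG-KO and 1.45, 2.08, 1.75 and 1.85 FPKM in NG-KO libraries (log2 fold change 0.73 ± 0.17, edgeR adjusted p = 0.213). Dhcr7, which makes cholesterol in its last step, was at 7.05, 8.08, 9.10 and 7.57 FPKM in AG-KO and 5.35, 6.59, 5.93 and 5.52 FPKM in NG-KO libraries (log2 fold change 0.47 ± 0.12, edgeR adjusted p = 0.216). Neither gene overlapped between the lines. Heat shock and endoplasmic reticulum stress genes were higher in 13 of 15, 6 at an unadjusted p under 0.05, with a median of 0.26.

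Of 25 genes of glutamate receptors and the excitatory postsynapse 21 were higher, 2 at an unadjusted p under 0.05, with a median of 0.13 (0.03 without AG-KO libraries 3 and 4). Shank1, a scaffold of the postsynaptic density, was at 24.4, 26.0, 41.0 and 39.1 FPKM in AG-KO and 16.6, 15.9, 23.3 and 24.0 FPKM in NG-KO libraries (log2 fold change 0.75 ± 0.22, edgeR adjusted p = 0.285), and Homer2 was at 5.50 to 8.89 FPKM in AG-KO and 5.13 to 6.38 FPKM in NG-KO libraries (log2 fold change 0.34 ± 0.15, edgeR adjusted p = 0.411). The highest Shank1 values were those of AG-KO libraries 3 and 4. None of 18 synaptic vesicle genes reached an unadjusted p under 0.05, and 7 were higher, with a median of -0.02. Among 13 latrophilins, FLRTs, teneurins and neurexins, the adhesion molecules that join synapses, 3 were higher and 2 lower at that level, with a median of 0.19 (-0.0035 without AG-KO libraries 3 and 4). Nrxn3, a presynaptic neurexin, was at 4.86, 5.06, 7.93 and 8.03 FPKM in AG-KO and 3.35, 3.26, 3.76 and 2.69 FPKM in NG-KO libraries, without overlap and with the high values in AG-KO libraries 3 and 4 (log2 fold change 1.02 ± 0.21, edgeR adjusted p = 0.198). Flrt3, a ligand of latrophilins, was at 3.99, 5.09, 4.51 and 4.84 FPKM in AG-KO and 5.62, 5.60, 5.98 and 6.11 FPKM in NG-KO libraries (log2 fold change -0.31 ± 0.11, edgeR adjusted p = 0.332). Of 21 clustered gamma protocadherins, whose transcripts share their last exons so that reads can be assigned to several of them, 4 were higher and 2 lower at an unadjusted p under 0.05. Pcdhgb4 was at 0.635 to 1.26 FPKM in AG-KO and at 0.737, 0.917, 1.25 and 74.5 FPKM in NG-KO libraries, which overlapped but for the last. Pcdhgb8 was at 0.322, 0.284, 5.14 and 0.574 FPKM in AG-KO and 8.27 to 17.4 FPKM in NG-KO libraries, without overlap and with AG-KO library 3 nearest to NG-KO.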

How the data were processed

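RNA-Seq was performed by the authors on poly(A) RNA of whole hippocampi, with unique molecular identifiers, strand marking and paired reads. Per the labels and the submitters' processing notes, cutadapt 1.9 trimmed the reads, HISAT2 2.0.4 aligned them to GRCm38, UMI-tools removed duplicates and StringTie 1.3.4d estimated transcripts. The deposited table holds read counts per gene (the counting setting for reads matching several places is not given in the sources used here) and FPKM computed by the authors, in which 0.0001 stands for 0 counts. Counts were used for tests and FPKM for levels.

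The 4 AG-KO and 4 NG-KO libraries (44527024 to 56816498 counts) were compared in R 4.3.3 with edgeR 4.0.16 (TMM, quasi-likelihood test, two-sided, 1 mean per genotype, Benjamini-Hochberg adjustment over 16744 genes, threshold 0.05); each SE was derived from the fold change and its F statistic. DESeq2 1.42.0, limma 3.58.1 on log2(FPKM + 0.1) and log2(FPKM + 1), other filters, a fit of all 14 libraries, Alb as covariate, the replicate block and leaving out libraries were alternatives. Calling without AG-KO libraries 3 and 4 and summing Gapdh-like models were chosen after the data were seen. Fits were tested on simulated data. Copies were found with BLAST 2.17.0 in GENCODE transcripts.

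The members and lists were chosen with earlier results of these data known. Genes were named by rule: Gper1, Gfap, Eno2, Pja1 and Serpina3n; up to 12 per direction with the largest change among called genes whose groups did not overlap, with mean FPKM of at least 1 and no predicted-model name, filled by smallest unadjusted p; up to 2 members per main list; and first markers of other tissues. Some genes that the rule named are not reported here.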

Additional observations from a re-analysis of the deposited data

Results flagged for a closer look

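Of 134 groups of 4 libraries examined among the named genes, 10 held a library far from the other 3 by Dixon's criterion at the 95% level, and chance gives about 1 in 20. In AG-KO these were library 1 for Tbl1xr1 (4.98 FPKM, against 7.47 to 7.53 in the others), for Alb (44.7 FPKM, against 0.0001 to 1.12) and for Zfp932 (2.13 FPKM, against 3.71 to 3.88), library 2 for Kcnj10 (39.5 FPKM, against 52.4 to 53.7) and for Bspry (0.892 FPKM, against 0.175 to 0.217), and library 3 for Pcdhgb8 (5.14 FPKM, against 0.284 to 0.574). In NG-KO these were library 3 for Foxj1 (4.12 FPKM, against 2.44 to 2.67) and library 4 for Pja1 (25.0 FPKM, against 57.2 to 62.0), Otud7b (4.04 FPKM, against 2.64 to 2.88) and Pcdhgb4 (74.5 FPKM, against 0.737 to 1.25). Without NG-KO library 4 the log2 fold change of Pja1 was -1.41, and Pja1 was still not called. DESeq2 was the only 1 of the 19 alternatives that called it.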

How the results depend on the processing

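Against 13 calls (7 higher, 6 lower in AG-KO), DESeq2 gave 351 (250 and 101), the fit of all 14 libraries 23 (13 and 10), the replicate block 3 (1 and 2) and the fit without AG-KO libraries 3 and 4 gave 18 (8 and 10). Leaving out 1 library gave 10 to 30 calls (4 to 20 higher, 5 to 10 lower). Of the 13 genes, 9 were called in every one of the 8 fits without a library, and Alad and Gm13394 in all 19 alternatives. With Alb as covariate in the edgeR fit, the calls of Mcur1, Fars2 and Dubr did not hold (adjusted p of 0.223, 0.182 and 0.134). Those of Invs and Tbl1xr1 did not hold either (0.0690 and 0.053). The study's thresholds, which 313 genes passed, gave 11 with the adjusted p, 747 with a ratio of 1.5, 270 without AG-KO libraries 3 and 4 and 266 to 555 without 1 library. The replicate numbers did not pair the samples: deviations of same-numbered AG-KO and NG-KO libraries correlated at -0.190, -0.193, -0.067 and -0.006, no library correlated best with its own number, and the 3 calls under the block were Zfyve27, Alad and Gm13394.

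Medians of lists moved as follows, in log2 units. With Alb as covariate they were -0.046 for glutamate receptor, 0.069 for latrophilin, -0.076 for gamma protocadherin, 0.52 for glucocorticoid response, -0.41 for mitochondrial, -0.10 for nuclear noncoding, 0.24 for interneuron, 0.18 for astrocyte and -0.072 for mural genes, and -0.019 near Gper1 and 0.045 near Eno2. Without AG-KO libraries 3 and 4 they were 0.29 for cholesterol, -0.0035 for latrophilin, -0.22 for mitochondrial, -0.076 for nuclear noncoding, 0.20 for astrocyte and -0.089 for mural genes, and 0.028 near Gfap and 0.018 near Eno2. Under the replicate block they were -5.35 for hepatocyte and -5.60 for spermatid genes. With a minimum of 1 FPKM newborn neuron genes were at -0.020. With limma at a pseudocount of 1, thalamus genes were at 0.26 and genes near Gfap at 0.025, and at a pseudocount of 0.1 genes near Gfap were at 0.034. The percentage of called promoters with TGACG was 100 under the block (2 of 2) and 83.3 without AG-KO libraries 3 and 4 (5 of 6). Without 1 library the medians ranged from -0.10 to 0.17 for A2, 0.058 to 0.24 for latrophilin, -0.16 to 0.33 for CA1, 0.036 to 0.32 for oligodendrocyte precursor, -5.90 to -1.59 for hepatocyte and -7.10 to -1.46 for spermatid genes, and from 0.033 to 0.052 near Gfap and 0.043 to 0.078 near Eno2. The sign turned for Gper1 without AG-KO replicate 1 (0.054, in a range of -0.33 to 0.054), Acta1 without AG-KO libraries 3 and 4 (0.25), Hba-a1 with Alb as covariate (0.073) and without AG-KO replicate 4 (0.0076, in a range of -0.34 to 0.0076), and Zfp932 with Alb as covariate (-0.18), none of them called. The log2 difference of the summed Gapdh-like models was 0.048 without Gm13394. The cause of these moves was not tested. In genes with few counts, such as Gapdh-ps15 with 4 to 8 in NG-KO libraries, the size of the fold change is uncertain. Its log2 fold change ranged from 2.04 to 5.16 over the alternatives other than leaving out 1 library.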
